A study of Homo sapiens with 9 samples.

Results

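The GFP peaks of untagged parental 786-O and A498 cells were compared to see which sites a GFP antibody pulls down when no eGFP is present, and how far 2 renal carcinoma lines share them. The members are the 3361 peaks called in parental 786-O and the 1563 called in parental A498, 4924 of the 52875 peaks in the 5 lists of the series. They were taken as whole lists, by file, with no threshold beyond the authors' own. A peak with an overlap of at least 1 bp in the other parental list is called common here, and any other peak is called specific to its line.

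Both lines are established lines of clear cell renal cell carcinoma, and both groups are parental cells with no knock-in, precipitated with the GFP antibody ab290. The tagged cells used for comparison carry eGFP inserted at ZNF395, and the sources used here do not say whether they are a clone. A further library is a MYC precipitation from parental 786-O, by its title and antibody, although its target field names P300. Per the labels' protocols, cells were crosslinked for 10 min in 1% formaldehyde, fragments were about 500 bp long and each precipitation took 20 µg of antibody. Each group is 1 library, so no difference between the lines has a replicate check, and line, library, depth and control cannot be told apart. The parental and tagged samples titled A498 carry 786-O in their cell line field. Groups follow the titles, and peak lists hold no expression of marker genes with which to check a line.

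Chromatin immunoprecipitation enriches DNA that is crosslinked to the antibody's target, and a control library of input DNA from the same kind of chromatin shows where reads pile up without antibody. In cells that lack the target, called peaks are the background of the procedure. Such background is known to gather at repeats whose many genomic copies are collapsed into few places of a genome assembly, such as the satellite DNA around centromeres, and at strongly transcribed or open chromatin. MYC, a transcription factor of growth genes, binds mainly at open promoters and enhancers.

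The overlap was large at the top of both lists and uneven below it. Of the parental A498 peaks, 733 of 1563 were common (46.9%, exact 95% interval 44.4 to 49.4). Of the parental 786-O peaks, 727 of 3361 were common (21.6%, 20.2 to 23.1). By summed peak width the common peaks made up a larger part, with 236.6 of 382.9 kb in A498 (61.8%) and 253.5 of 850.4 kb in 786-O (29.8%). These sums take the whole width of each common peak, and so exceed the sequence that both lists share. With 786-O cut to its 1563 highest peaks, as many as A498 holds, the shares became 41.4% of A498 and 40.5% of 786-O peaks. Without the 41 bins of 1 Mb that held 10 or more parental peaks in either line, they were 40.2% and 12.5%. All intervals allow for counting error alone and take peaks as independent, which neighbouring peaks are not.

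Common peaks were concentrated at high scores in both lines. The score is the authors' value for each peak, read here as a −log10 p or q, and is compared only within a list. All of the 10 highest 786-O peaks and 9 of the 10 highest A498 peaks were common. Among the 100 highest, 97 were common in 786-O and 86 in A498. Among the 500 highest, 415 (83.0%, 79.4 to 86.2) were common in 786-O and 351 (70.2%, 66.0 to 74.2) in A498. Each list was also divided by score into 10 equal parts, part 1 being the highest. In part 1 the common share was 91.1% in 786-O and 82.8% in A498. In 786-O it was 20.8% in part 3 and 4.17% in part 10, while in A498 it was 61.5% and 13.5% there. These shares stand beside 21.6% and 46.9% for the whole lists. The parts hold more peaks in 786-O (337 in part 1) than in A498 (157), so the falls in the lines are not compared.

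**Figure D1:**
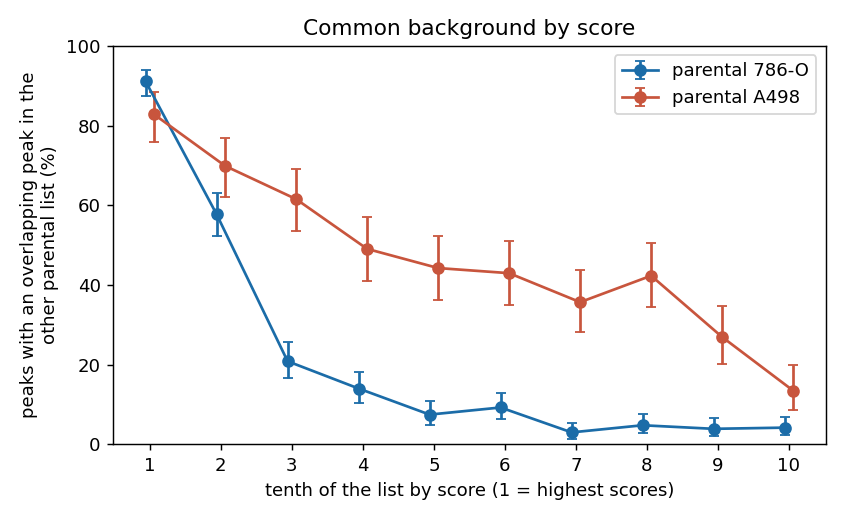
Share of peaks (%) with an overlapping peak in the other parental list, in 10 equal parts of each list by score (1 is the highest), for parental 786-O and parental A498. Points are shares and bars are exact 95% binomial intervals. The 786-O share fell from 91.1% in part 1 to 20.8% in part 3, and the A498 share from 82.8% to 61.5%, in parts of unequal size between the lines.

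Median scores said the same within each list. The median was 20.2 for common and 5.70 for specific peaks of 786-O, which differ by 14.5 (12.8 to 17.0, from exact intervals of both medians). For A498 it was 22.2 and 9.49, which differ by 12.7 (10.1 to 16.2), or by 7.40 (4.49 to 10.2) without the dense bins. The specific peaks of A498 were thus not confined to the bottom of their list: 74 of them stood among its highest 20%, and 172 specific 786-O peaks stood among the highest 20% of the longer 786-O list.

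The peaks that both lines placed highest had few other parental peaks near them, with 2 to 5 in all where peaks are chained at gaps of at most 10 kb, and 8 of the 10 leading ones were more than 500 bp wide in both lines. By the sum of ranks the first was the chromosome 17 site at 19091278 to 19091579 in 786-O (hg19 coordinates throughout; score 171.7, rank 1). Its A498 peak spanned 19091271 to 19091592 (score 135.0, rank 4). No MYC peak overlapped it. The second was on chromosome 1 at 16839971 to 16840906 in 786-O (rank 6) and 16839158 to 16840862 in A498, where it was the highest peak of all, with a score of 154.1. The third was on chromosome 1 at 28975010 to 28975899 (ranks 4 and 10), and the fourth on chromosome 11 at 62608381 to 62609360 (ranks 12 and 5). The A498 peaks on chromosome 1 at 16839158 and chromosome 11 at 62607568 were 1705 and 1801 bp wide and each spanned more than 1 peak of 786-O. The first overlapped 786-O peaks of ranks 6, 437 and 704, and the second those of ranks 12 and 2311.

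The other 6 of the 10 leading pairs lay on chromosome 17 at 41438085 (ranks 7 in 786-O and 11 in A498) and 5185292 (ranks 20 and 15), and on chromosome 1 at 11968094 (ranks 8 and 13), 45186733 (ranks 19 and 7), 149223296 (ranks 16 and 14) and 148241352 (ranks 21 and 16). In all 10 the site was also called in both tagged libraries, so it was present in each of the 4 GFP lists. A MYC peak overlapped 7 of the 10 in 786-O. Those MYC peaks held ranks between 8552 and 19744 of 20199.

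Across common sites the ranks of the lines went together. Over 727 pairs, each 786-O peak with its highest A498 partner, Spearman's rank correlation of the scores was 0.72, given as a description because neighbouring peaks share sequence and each line gives all its points from 1 library. The value was 0.80 over 434 pairs in runs of 5 or more peaks and 0.59 over 205 pairs with no further peak of either line within 10 kb. Pairs without a MYC peak gave 0.78 (n = 541) and pairs with one gave 0.47 (n = 186). Both members stood in the highest 20% of their own list in 233 of the 727 pairs. A further 267 were in the highest 20% of 786-O but lower in A498, and 9 showed the opposite. The median common pair stood at 12.6% of the 786-O list and 32.4% of the A498 list. The lists differ in length, and these counts were not made at equal length.

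**Figure D2:**
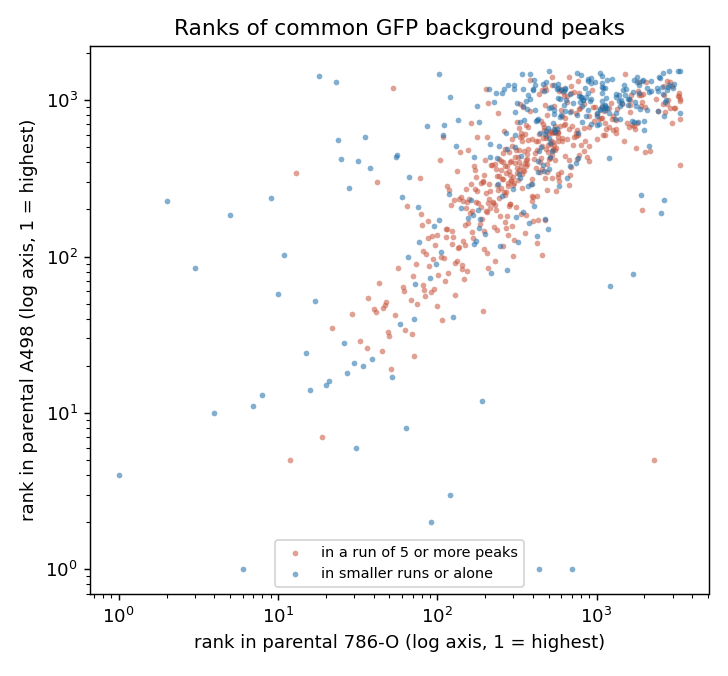
Rank of each common 786-O peak (horizontal, log axis) against the rank of its highest overlapping A498 peak (vertical, log axis), with 727 pairs coloured by whether the pair lies in a run of 5 or more parental peaks. The rank correlation was 0.80 over the pairs in such runs, and the plot also holds pairs far from the diagonal, such as ranks 18 and 1433.

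Some common sites held very different places. The pair ranked highest in 786-O relative to A498 was on chromosome 17 at 72510118 to 72511358, where 786-O gave a rank of 18 (score 92.1, width 1241 bp) and A498 one of 1433 (score 3.33, width 189 bp). On chromosome 15 at 72668194 to 72668624 the ranks were 23 and 1305, and on chromosome 14 at 20811153 to 20811660 they were 102 and 1468. The remaining pairs of this kind were on chromosome 19 at 32836398 (ranks 341 and 1467) and chromosome 17 at 70588784 (ranks 500 and 1530). In each of these 5 pairs the A498 peak was the narrower, at 116 to 189 bp against 253 to 1241 bp.

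In the opposite direction, 3 of the 5 largest differences arose where 1 wide A498 peak met a further, minor 786-O peak. The A498 peak at rank 5 on chromosome 11 (62607568 to 62609368) covered, besides the 786-O peak of rank 12, a second one of 129 bp at 62608013 with rank 2311. On chromosome 16, an A498 peak of 1464 bp at 46388297 with rank 383 overlapped 786-O peaks of ranks 219, 220 and 3360. On chromosome 1 at 210546080, an A498 peak of 1633 bp with rank 230 met 786-O peaks of ranks 162 and 2642. The remaining pair of sites had no better 786-O partner: chromosome 6 at 26055310 to 26056765, with rank 190 in A498 and 2538 in 786-O, and chromosome 2 at 133022278 to 133022468, with ranks 754 and 3344.

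Most peaks that paired 1 to 1 between the lines had close midpoints and overlapped over most of their width. Of 757 overlapping pairs, 673 joined 1 peak of each line. The midpoints of these 673 pairs were a median of 11.5 bp apart (quartiles 4 and 37.5 bp), and 536 (79.6%) were within 50 bp. The overlap covered a median of 97.8% of the 786-O peak (quartiles 76.9% and 100%) and 93.6% of the A498 peak (82.3% and 100%). Not all common peaks matched so closely. With an overlap of 50% of both peaks required, 36.9% of A498 and 17.1% of 786-O peaks were common. Median widths of the 1 to 1 pairs were 214 bp in 786-O and 195 bp in A498, and the 786-O peak was the wider in 265 of 673 pairs (39.4%).

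The mitochondrial genome was the extreme of unequal splitting. In 786-O it held 2 peaks, at 21 to 5568 and 5750 to 16562, which were the widest of the list at 5548 and 10813 bp and together covered 16361 bp. In A498 it held 19 peaks of 126 to 1678 bp, covering 9985 bp, and 14 of them lay within the second 786-O peak and 5 within the first. All 19 therefore counted as common, 2.59% of the common A498 peaks, although they answer to only 2 peaks in 786-O. The 2 peaks of 786-O held ranks 548 and 569, and the A498 peaks held ranks 578 to 1531.

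Common peaks were wider than line-specific ones, but in 786-O this did not hold among the highest scores. The 1 bp rule itself favours wide peaks among the common ones, since a wide peak is more likely to overlap another. In A498 the median width was 204 bp for common peaks (quartiles 150 and 363 bp) and 136.5 bp for specific ones (119 and 189.75 bp), a difference of 67.5 bp (53 to 88). It was positive in each of 5 equal parts of the list by score, at 29 to 141 bp. In 786-O the medians were 217 bp (147 and 366.5 bp) and 187 bp (145 and 250 bp), a difference of 30 bp (18 to 54). It was 83 bp (50 to 102) without the dense bins and 15 bp (-3 to 30) when overlap had to cover 50% of both peaks. In the highest 20% of 786-O scores the order turned: specific peaks had a median of 271 bp and common ones 217 bp, a difference of -54 bp (-87 to -5). In the 4 lower parts it was 5, 69, 38.5 and 16 bp, with intervals that reached below 0 in 3 of them. Over the 1563 highest 786-O peaks the difference was -1 bp.

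Narrow peaks set the A498-specific list apart from the other classes. The smallest width was 112 bp in A498 and 122 bp in 786-O. Of the A498-specific peaks 259 of 830 (31.2%) were within 10 bp of that minimum, against 39 of 733 common A498 peaks (5.32%). In 786-O the shares were 16.1% of specific and 14.4% of common peaks. At the other end, peaks over 500 bp made up 14.6% of common and 2.41% of specific peaks in A498, and 14.7% and 3.91% in 786-O. Here too the 1 bp rule favours wide peaks among the common ones.

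**Figure D3:**
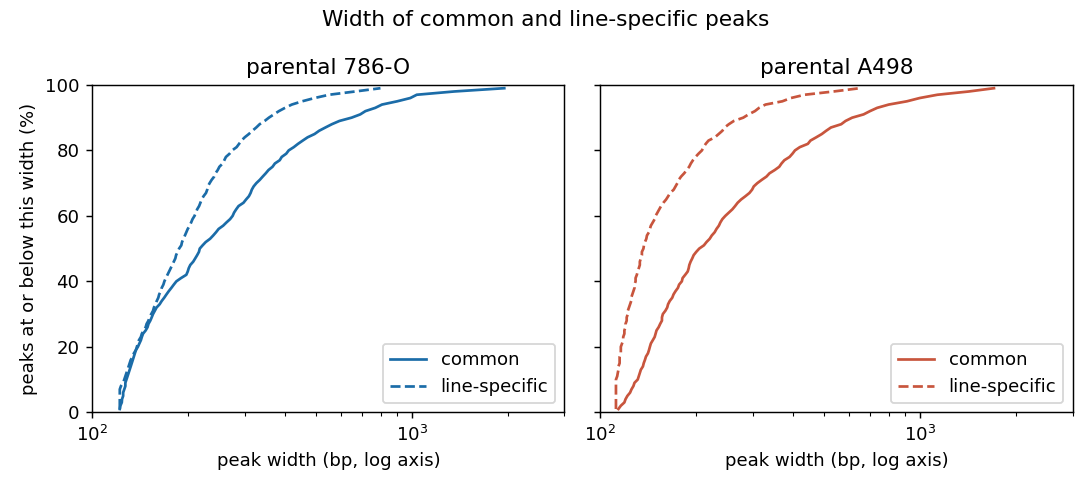
Share of peaks (%) at or below each width (bp, log axis), for common (solid) and line-specific (dashed) peaks of parental 786-O (left) and parental A498 (right). The A498 curves are closest at the narrowest peaks, with percentile 1 at 114 and 112 bp, and are apart at their medians of 204 and 136.5 bp. The 786-O curves nearly coincide at small widths, with first quartiles of 147 and 145 bp, and are apart at their medians of 217 and 187 bp.

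The widest peaks after those of the mitochondrial genome were shared by the lines. In 786-O they were on chromosome 1 at 86046175 to 86050731 (4557 bp, rank 13), chromosome 6 at 58776251 to 58779370 (3120 bp, rank 549) and chromosome 5 at 137803868 to 137806745 (2878 bp, rank 53). The one on chromosome 6 was also the widest of A498, at 58776246 to 58779397 (3152 bp, rank 623), with both boundaries within 30 bp of the 786-O peak. Others in A498 were on chromosome 17 at 57918537 to 57921569 (3033 bp) and 57916199 to 57918388 (2190 bp), chromosome 5 at 57747193 to 57749460 (2268 bp) and chromosome 12 at 125393889 to 125396133 (2245 bp). Of the 5 widest peaks of each list, all were common, and 1 in each had a MYC peak. Their width itself makes an overlap more likely.

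Common peaks had close neighbours more often than specific ones, in both lines. Another peak of the same list lay within 10 kb of 34.9% (33.3 to 36.6) of 786-O peaks and 56.9% (54.4 to 59.4) of A498 peaks. In 786-O this held for 67.7% (64.1 to 71.1) of common and 25.9% (24.2 to 27.6) of specific peaks, and in A498 for 65.8% (62.2 to 69.2) of common and 49.2% (45.7 to 52.6) of specific peaks. Most 786-O-specific peaks were thus solitary at this distance, and the A498-specific peaks were divided almost evenly, 408 of the 830 having a neighbour.

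Peaks of both lists were then chained into runs wherever the gap was at most 10 kb. This gave 2973 runs, of which 390 held peaks of both lines, 2149 held 786-O peaks and no A498 peak, and 434 the reverse. Single peaks made up 1927 of the 786-O runs and 390 of the A498 runs. The 38 runs of 10 or more peaks all held both lines, and 32 of them held more A498 than 786-O peaks, despite the shorter A498 list. They took in 382 peaks of 786-O (11.4%) and 578 of A498 (37.0%). Nearly all of their 786-O peaks were common (361 of 382), against 363 of 578 in A498. The other 215 A498 peaks were A498-specific peaks set among shared ones.

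The fullest run was on chromosome 4 at 49093367 to 49158563, where 65.2 kb held 35 peaks of 786-O and 63 of A498. All 35 of 786-O were common, and 34 of the 63 in A498. The next were on chromosome 10 at 42355480 to 42409366, with 37 and 50 peaks, chromosome 16 at 46385868 to 46435543, with 38 and 45, and chromosome 2 at 92269435 to 92325881, with 29 and 36. Chromosome 2 held 2 more, at 133011882 to 133039189 (14 and 29 peaks) and 89848679 to 89879980 (15 and 19). Chromosome Y held a pair, at 13448644 to 13489797 (18 and 28) and 13801029 to 13869206 (11 and 20). Chromosome 4 at 49634624 to 49659721 (11 and 19) and chromosome X at 61709756 to 61734200 (8 and 22) completed the 10.

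In these 10 runs 214 of 216 peaks of 786-O were common, against 203 of 331 in A498. The runs held 6.43% of the 786-O list and 21.2% of the A498 list. None was led by a peak among the 30 highest of either list, the best being rank 31 in A498 and rank 37 in 786-O, both on chromosome X. MYC had at most 1 peak in the span of each. Tagged 786-O cells had 5 to 36 peaks there and tagged A498 cells 1 to 31.

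**Figure D4:**
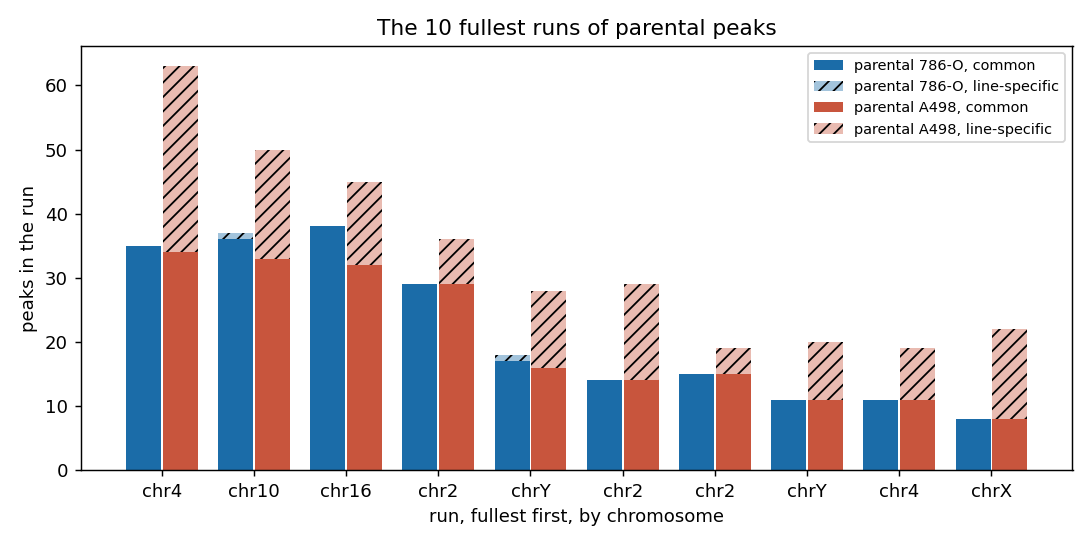
Number of parental peaks in the 10 fullest runs (peaks chained at gaps of at most 10 kb), by chromosome, with bars from 0 for parental 786-O and parental A498 split into common (solid) and line-specific (hatched) peaks. Of the 786-O peaks in these runs 214 of 216 were common, and 128 of the 331 A498 peaks were specific to A498.

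Runs differed in whether the MYC library had peaks within them. Of 93 runs of 5 or more peaks, 48 had no MYC peak in their span and 45 had at least 1. In runs without a MYC peak 94.9% of the 786-O peaks (263 of 277) and 57.8% of the A498 peaks (273 of 472) were common. In runs with one, 59.4% (171 of 288) and 65.0% (169 of 260) were. Median widths in the runs without MYC were 173 bp in 786-O and 171.5 bp in A498, and in those with MYC 256 and 190 bp. Of the 38 runs of 10 or more peaks, 10 had a MYC peak in their span. These included chromosome 11 at 65186638 to 65197531, with 10 peaks of 786-O, 6 of A498 and 4 of MYC, and chromosome 3 at 5020272 to 5036794, with 8, 3 and 5. Others were on chromosome 6 at 74222131 to 74230927, chromosome 7 at 5562210 to 5570359, chromosome 11 at 65264952 to 65275645 and chromosome 17 at 57915068 to 57924612. These 6 were singled out after their values were seen.

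Of the runs of 5 or more peaks, 5 held 786-O peaks alone and 3 held A498 peaks alone. The fullest in 786-O were on chromosome 9 at 139684630 to 139703161 (8 peaks, with 8 MYC peaks in the span), chromosome 10 at 60272602 to 60278828 (7 peaks, 2 of MYC) and chromosome 22 at 39704942 to 39715751 (5 peaks, 5 of MYC). In A498 they held 6 peaks each and no MYC peak, on chromosome 21 at 10765835 to 10785233, chromosome 4 at 49309308 to 49323543 and the contig 19_gl000208_random at 88593 to 92419. The best rank was 1279, 857 and 388 in the 786-O runs and 558, 92 and 141 in the A498 runs.

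Part of the background lay beside long stretches with no peak in the other lists. On each of the 24 chromosomes the longest stretch free of tagged and MYC peaks was found from those 3 lists, without use of the parental ones. Sequence within 1 Mb of these stretches, or inside them, held 23.7% (20.6 to 26.9) of the common and 1.33% (0.927 to 1.84) of the specific 786-O peaks. In A498 it held 22.2% (19.3 to 25.4) of the common and 22.2% (19.4 to 25.2) of the specific peaks. The same sequence held 2.14% of tagged 786-O, 3.93% of tagged A498 and 1.11% of MYC peaks, but these lists set the stretches. They bear on the parental classes too, since a peak that overlaps one of them cannot lie wholly inside a stretch. Of the A498-specific peaks 70.5% were in none of the 3 lists, against 20.0% of the 786-O-specific ones.

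The stretch on chromosome 10, from 39136849 to 42356101, had 58 parental 786-O and 82 parental A498 peaks in or near it. Chromosome 16, with a stretch from 35239741 to 46385912, had 40 and 55, and chromosome 2, with one from 92325282 to 95670159, had 29 and 38. On chromosome 7 the counts were 5 and 24, on chromosome 1 they were 11 and 27, and on chromosome 21 they were 4 and 23. Chromosomes 14, 18 and X had none in either line. In hg19 the centromeres are mostly unsequenced gaps flanked by satellite repeats, and whether a stretch is such a gap was not analysed here, for lack of an annotation of that build.

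Line-specific peaks of A498 were more often near a peak of the other line than those of 786-O were. Of 830 A498-specific peaks, 148 (17.8%, 15.3 to 20.6) lay within 1 kb of a parental 786-O peak and 303 (36.5%, 33.2 to 39.9) within 10 kb, with a median distance of 66.4 kb. Of 2634 786-O-specific peaks, 65 (2.47%, 1.91 to 3.13) lay within 1 kb of a parental A498 peak and 178 (6.76%, 5.83 to 7.78) within 10 kb, with a median of 964.3 kb. The 786-O list is the longer, and so offers more peaks to be near.

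Among the 10 highest A498-specific peaks the first and the third had no other parental peak of either line within 10 kb. The first, a 614 bp peak on chromosome 17 at 56756528 to 56757141, scored 119.6 and held rank 9. Its nearest 786-O peak was 19805 bp away, and it was called in tagged A498 with rank 455 and not in tagged 786-O. The third, on chromosome 1 at 144534005 to 144534533 (rank 30, 529 bp), was likewise called in tagged A498 (rank 2166) and had no peak in tagged 786-O. It lay 674334 bp from the nearest 786-O peak. The other 8 were 120 to 135 bp wide.

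Of these narrow peaks, 4 were on the contig 9_gl000199_random, at 160698, 109719, 162971 and 93362, with ranks of 27, 36, 55 and 69. Another pair was on chromosome X at 61685244 and 61709756 (ranks 38 and 63). The last were on chromosome 8 at 43827017 (rank 71) and chromosome 3 at 90492287 (rank 74). For 7 of these 8 the nearest 786-O peak was 601 to 1992 bp away, and for the one on chromosome 3 it was 4546547 bp away. None of the 10 had a MYC peak, 2 had a tagged 786-O peak and 3 a tagged A498 peak.

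The highest 786-O-specific peak was 149 bp wide, on chromosome 1 at 567516 to 567664 (score 96.4, rank 14), and was called in tagged 786-O with rank 3490. The next were on chromosome Y at 58827262 (rank 44) and 58905213 (rank 59), with further peaks on Y at 58866001 (rank 132) and 13689753 (rank 158). The others were on chromosome 11 at 118306825 to 118307212 (rank 128, 388 bp), chromosome 21 at 11186115 (rank 139), chromosome 9 at 134615479 (rank 147), chromosome 8 at 56986808 (rank 160) and chromosome 22 at 18883660 (rank 183). Those on chromosomes 11, 9 and 8 were the 3 with a MYC peak and were also called in both tagged lists. In all, 8 of the 10 were called in tagged 786-O and 4 in tagged A498.

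The lists differed in where on the genome they lay. Chromosome Y held 83 peaks in A498 (5.31%, 4.25 to 6.54) and 45 in 786-O (1.34%, 0.978 to 1.79), and 51 of the 83 were specific to A498 against 12 of the 45 in 786-O. Runs at 13448644 to 13489797 and 13801029 to 13869206 held 28 and 20 of the A498 peaks on Y, and 18 and 11 of those of 786-O. Whether peaks placed on Y come from Y itself or from repeats shared with other chromosomes was not tested. Chromosome 4 held 127 peaks in each line, which was 8.13% of the A498 list and 3.78% of the 786-O list. Its runs at 49093367 to 49158563 and 49634624 to 49659721 held 63 and 19 of these in A498, and 35 and 11 in 786-O. Chromosome 16 had 45 A498 and 38 786-O peaks in 1 run at 46385868 to 46435543. Its share of the list was also larger in A498, at 6.72% (5.53 to 8.07) against 4.17% (3.52 to 4.90). The order was the opposite on chromosome 3, with 5.53% (4.79 to 6.36) of 786-O and 2.37% (1.67 to 3.25) of A498 peaks, and on chromosome 13, with 1.73% (1.31 to 2.23) and 0.512% (0.221 to 1.01). Contigs outside the chromosome sequences held 53 A498 peaks and 23 of 786-O. On 9_gl000199_random all 21 peaks of 786-O were common, and 21 of 39 in A498.

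The common share of a chromosome's 786-O peaks ran from 5.17% on chromosome 13, 6.40% on chromosome 9 and 7.53% on chromosome 3 to 46.5% on chromosome 4 and 73.3% on chromosome Y. In A498 it ran from 20.8% on chromosome 9 to 69.6% on chromosome 18 among the numbered chromosomes. Copy number of the chromosomes in either line was not analysed here.

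The tagged and MYC lists did not enter the definition of common and specific peaks, and the classes differed in how often they were found there. Of all parental 786-O peaks 76.2% were called in tagged 786-O, 36.0% in tagged A498 and 60.5% in MYC. Of all parental A498 peaks 51.9% were called in tagged 786-O, 35.1% in tagged A498 and 15.9% in MYC. Common peaks were found again in tagged 786-O in 84.5% (81.6 to 87.0) of cases counted on the 786-O list and 85.4% (82.6 to 87.9) counted on the A498 list. In tagged A498 the shares were 59.7% (56.0 to 63.3) and 60.3% (56.7 to 63.9), lower on the shorter tagged list.

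Specific peaks of 786-O were called again in tagged 786-O in 73.9% (72.2 to 75.6) of cases, but in tagged A498 in 29.4% (27.7 to 31.2). Within the 5 equal parts of the 786-O list by score, neither class was steadily the higher in tagged 786-O, and the intervals of the classes overlapped in every part. Specific peaks had the higher share in part 1 (89.5%, 84.0 to 93.7, against 88.0%, 84.9 to 90.7) and part 2 (84.0% against 74.4%). They also had it in part 5 (65.3%, 61.5 to 68.9, against 63.0%, 42.4 to 80.6, of 27 common peaks). Common peaks had the higher share in part 3 (85.7% against 73.2%) and part 4 (80.8%, 60.6 to 93.4, of 26 common peaks, against 70.4%). In tagged A498 the common share was the higher in each part, though the intervals overlapped in parts 1, 2 and 4. A498-specific peaks were called again in tagged A498, the same line by title, in 12.9% (10.7 to 15.4) of cases and in tagged 786-O in 22.3% (19.5 to 25.3). In none of the 3 lists were 70.5% (67.2 to 73.6) of the A498-specific peaks, 20.0% (18.5 to 21.5) of the 786-O-specific and 11.1% of the common peaks on either list. Tagged A498 holds 7718 peaks and tagged 786-O holds 20034, and absence from a list does not show absence of signal below its threshold.

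**Figure D5:**
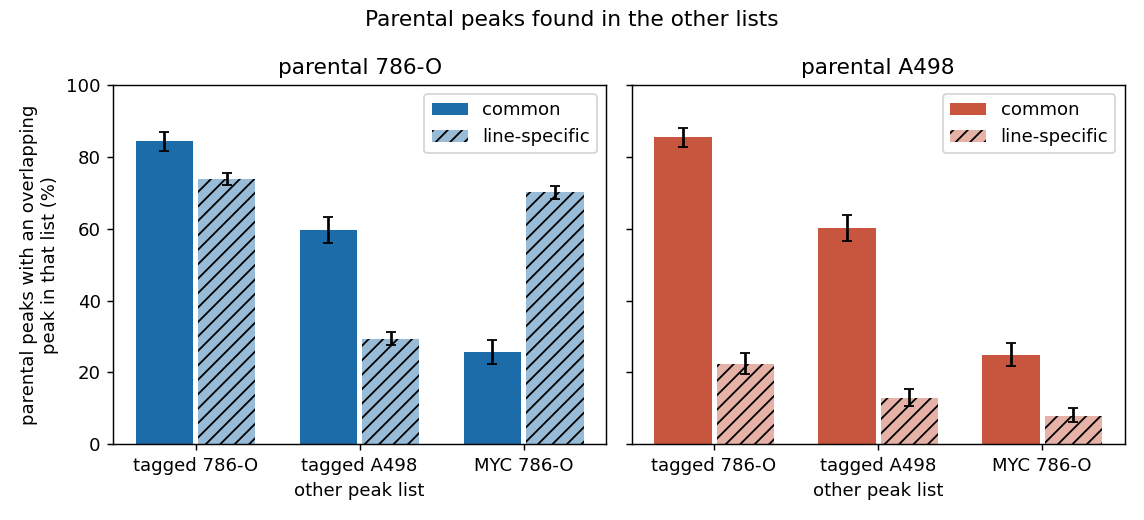
Share of parental peaks (%) with an overlapping peak in the tagged 786-O, tagged A498 and MYC lists, for parental 786-O (left) and parental A498 (right), with bars from 0 for common (solid) and line-specific (hatched) peaks and exact 95% binomial intervals. The MYC bar is 70.1% for 786-O-specific and 25.6% for common 786-O peaks, and the A498-specific bars are the lowest, at 22.3%, 12.9% and 7.95%.

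MYC peaks lay at most 786-O-specific peaks and at few A498-specific ones. The MYC library was made from 786-O and was called against the same control library as parental 786-O, and the part of that control, and of line, in these shares was not tested. A MYC peak overlapped 70.1% (68.3 to 71.8) of 786-O-specific peaks, 25.6% (22.4 to 28.9) of common 786-O peaks, 24.8% (21.7 to 28.1) of common A498 peaks and 7.95% (6.20 to 10.0) of A498-specific peaks. The 786-O-specific share was 63.6% to 76.8% in the 5 equal parts by score and the common share 18.5% to 42.9%, so the order held in each part. In the highest 20% the shares were 76.7% (69.7 to 82.8) of specific and 20.6% (17.1 to 24.4) of common peaks.

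The MYC share of common peaks was lowest in the fullest runs. In runs of 10 or more peaks 2.77% (1.34 to 5.04) of common 786-O peaks had a MYC peak, and in runs of 5 to 9 peaks 35.6% (24.7 to 47.7). In runs of 3 or 4 it was 43.2% (32.7 to 54.2), and for the 205 common pairs with no further peak within 10 kb 54.6% (47.6 to 61.6). Specific peaks that were alone or in a run of 2 had a MYC peak in 71.7% (69.8 to 73.5) of cases in 786-O and 11.2% (8.53 to 14.4) in A498. None of the 215 A498-specific peaks in runs of 10 or more had one, which allows a share of up to 1.40% when a count of 0 is taken to allow 3 peaks (exact upper bound 1.70%). Outside the 1 Mb bins that held 10 or more parental peaks in either line, 48.4% (43.1 to 53.8) of common 786-O peaks and 48.1% (42.8 to 53.5) of common A498 peaks had a MYC peak, while the 786-O-specific share was 70.8% and the A498-specific share 12.2%.

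The 205 common pairs outside longer runs were mostly called again in tagged cells. Their median width was 240 bp in 786-O and 186 bp in A498, and their median ranks were 523 and 796. In tagged 786-O 89.8% of them were called, and in tagged A498 62.9% counted on the 786-O list and 62.4% counted on the A498 list. The 2283 786-O-specific peaks alone or in a run of 2 had medians of 184 bp in width and 2013 in rank. The 472 such A498-specific peaks had medians of 137 bp and 1160, and 8.47% of them were called in tagged A498.

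Scores of parental peaks were also set beside those of the tagged peaks they overlapped. Between parental and tagged 786-O, Spearman's rank correlation was 0.40 across 614 common peaks and 0.13 across 1947 specific ones. Between parental and tagged A498 it was 0.37 across 442 common and 0.56 across 107 specific peaks. Across the lines, parental 786-O with tagged A498 gave 0.47 for 434 common and 0.03 for 775 specific peaks. Parental A498 with tagged 786-O gave 0.25 for 626 common and -0.05 for 185 specific peaks. The value was the higher with tagged cells of the other line for common 786-O peaks, and with those of their own line for common A498 peaks. Each value rests on a different set of peaks, so this order does not compare the same sites. These are descriptions over peaks of single libraries, and neighbouring peaks share sequence.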

How the data were processed

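The authors' deposited files are 5-column peak lists without headers, 1 library per list. The submitters' processing notes name BWA, MACS2 and the hg19 build. Versions were not given in the sources used here. Peak names in the deposited files record a merge, a sort and a mapping-quality step, and 1 control library per list. MYC and parental 786-O name the same control. The deposited score was taken to be −log10 of the peak caller's p or q, because every list begins near 2 (a threshold of 0.01). Depth behind single peaks is unknown, as reads were not listed. The labels state an average of 30 to 50 M reads. Chromosome positions are hg19, printed from 1.

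Overlap of 1 bp or more defined common peaks. Shares carry exact (Clopper-Pearson) 95% intervals. Medians carry exact binomial intervals, and an interval of a difference joins the outer bounds of both. No test was made, each group being 1 library. Named sites were the 10 common pairs of best rank sum, the 10 highest specific peaks of each line, the 5 pairs of largest rank difference in each direction (ranks as percent of the list), the 5 widest peaks, the 10 fullest runs and 3 runs of each line alone. The members and lists were chosen with earlier results of these data known. Computation used scipy 1.17.1, pandas 2.3.3 and numpy 2.4.6 under Python 3.11.15, with figures by matplotlib 3.10.9, and overlaps were tested on simulated data and against bedtools 2.31.1. The reference tables at hand were of another build, so genes and sequences at the peaks were not analysed here.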

Additional observations from a re-analysis of the deposited data

How the results depend on the processing

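Of 63 values under other settings, 21 stayed within the interval of the reported value (or at the same rounded rank correlation), 40 left it and 2 reversed. The share of A498 peaks that were common (46.9%) and the share of 786-O peaks that were common (21.6%) became 36.9% and 17.1% when overlap had to be 50% in both peaks. They were 42.4% and 19.8% for midpoints at most 200 bp apart, 56.4% and 23.6% for peaks widened by 500 bp, 59.7% and 28.4% for the upper 50% by score, and 41.4% and 40.5% with lists of equal length. Without dense 1 Mb bins they were 40.2% and 12.5%. The A498 share was 43.5% without the widest 1% of peaks, and the 786-O share 18.2% with peaks within 1 kb merged. The rank correlation (0.72) was 0.80 with reciprocal overlap, 0.75 with midpoints and 0.58 without dense bins.

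The 786-O width difference (30 bp) reversed to -1 bp with lists of equal length and to -54 bp in the highest of 5 score parts. It was 15 bp with reciprocal overlap, 83 bp without dense bins, and 5, 69 and 16 bp in parts 2, 3 and 5. The A498 width difference (67.5 bp) was 141, 91, 31.5 and 29 bp in parts 2 to 5. Without dense bins the score difference was 10.7 in 786-O and 7.40 in A498, and in A498 it was 17.4 with reciprocal overlap and 16.7 with lists of equal length. The share of peaks with a neighbour was 22.4% in 786-O and 39.5% in A498 within 1 kb, 56.4% and 66.3% within 100 kb, and 38.1% in 786-O with lists of equal length.

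Shares in other lists without dense bins were an alternative chosen after seeing the data. Common 786-O peaks were then found in tagged 786-O in 87.4% and in MYC in 48.4% of cases, common A498 peaks in 88.2% and 48.1%, and A498-specific peaks in MYC in 12.2%. For all these moves the cause was not tested. The annotation of peaks that had been planned was not run, for lack of an hg19 annotation. No paired analysis was possible because each group is 1 library.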
